A study of Mus musculus with 8 samples.

Results

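The 2-oxoglutarate-dependent dioxygenases are enzymes that use iron, oxygen and 2-oxoglutarate, an intermediate of the citric acid cycle, to oxidise DNA, histones, other proteins or small molecules. The 34 genes described here were taken by symbol from the 27710 genes of each count file. They are 3 TET enzymes, 4 hydroxylases of the hypoxia-inducible factor (HIF) pathway, 13 JmjC histone demethylases or close relatives, 4 small JmjC proteins, 7 hydroxylases of the endoplasmic reticulum and 3 others. Genes of the AlkB family, to which ALKBH5 itself belongs, were left out by the same rule.

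The RNA came from mouse bone marrow depleted of cells of the mature lineages and cultured with stem cell factor, thrombopoietin, Flt3 ligand and interleukin-3. One genotype was wild type (WT). The other was Vav-iCre+; Alkbh5fl/fl, called Alkbh5-deficient below, in which the Vav promoter drives Cre recombinase in blood cells. The uridine analogue 4-thiouridine (s4U) was fed at 100 µM for 2 h to the cells of 3 libraries per genotype, and 1 library per genotype came from cells without any agent. TimeLapse chemistry, which recodes s4U taken up into RNA, was applied to the total RNA of all 8. The labels do not state the age or number of the mice.

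In blood progenitors TET2 is best known for oxidising 5-methylcytosine in DNA, and loss of its function is common in clonal haematopoiesis. The EGLN prolyl hydroxylases mark HIF alpha subunits for degradation when oxygen is present, and the asparaginyl hydroxylase HIF1AN lowers HIF activity. JmjC demethylases remove methyl groups from histone lysines, while the P4HA, P3H and PLOD enzymes hydroxylate collagen in the endoplasmic reticulum.

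Several of these genes are themselves known targets of HIF, so promoter sequence is shown for Egln3 and P4ha1, 2 textbook targets, and for P3h1, the gene with the smallest p between genotypes. Each is the window of 250 bases before the transcription start in the RefSeq table for GRCm38.p6, written 5′ to 3′ on the strand of the gene. Capitals mark the core letters of the HIF response element, ACGTG or GCGTG, on either strand. The window of P3h1, the upstream one of 2 in the table, is chr4:119232665-119232914 on the plus strand, that of Egln3 is chr12:54203875-54204124 on the minus strand, and that of P4ha1 is chr10:59323046-59323295 on the plus strand.
P3h1: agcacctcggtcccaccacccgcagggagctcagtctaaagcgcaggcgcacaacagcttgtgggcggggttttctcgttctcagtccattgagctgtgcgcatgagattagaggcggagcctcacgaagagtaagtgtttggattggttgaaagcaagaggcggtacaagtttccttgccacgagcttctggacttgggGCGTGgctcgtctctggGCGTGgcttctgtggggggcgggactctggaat
Egln3: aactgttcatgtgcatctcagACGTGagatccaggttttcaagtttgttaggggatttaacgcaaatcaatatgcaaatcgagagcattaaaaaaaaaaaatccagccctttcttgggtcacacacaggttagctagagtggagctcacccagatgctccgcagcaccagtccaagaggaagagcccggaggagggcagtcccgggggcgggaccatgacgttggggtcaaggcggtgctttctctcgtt
P4ha1: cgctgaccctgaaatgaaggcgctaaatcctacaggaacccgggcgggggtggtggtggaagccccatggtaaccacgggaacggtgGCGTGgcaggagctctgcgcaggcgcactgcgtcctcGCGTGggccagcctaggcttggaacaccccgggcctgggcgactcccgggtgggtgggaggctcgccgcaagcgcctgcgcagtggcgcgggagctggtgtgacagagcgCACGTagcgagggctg
Of the 34 genes, 28 matched the RefSeq table with 37 windows. Either core occurred in 23 of these windows (62.2%), against 38.6% of all 32851 windows of the same length. ACGTG alone occurred in 12 (32.4%), against 16.6%. Matches on the 2 strands may overlap, as in CACGTG, and a match of letters is not a measured site. Both cores hold the pair CG, which occurred from 0 times in a window of Kdm3a to 56 times in that of Kdm7a. Content of CG was not matched between these windows and all windows. Windows of the same gene can also overlap and share matches, as for Kdm2b.

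The libraries held between 5723245 and 8615997 counts assigned to genes, and the 34 dioxygenase genes took between 0.363% and 0.487% of them. Alkbh5 had between 1061 and 1479 counts in the 4 WT libraries and at most 1 in each Alkbh5-deficient library. All 10 stem and progenitor markers were above 0 in every library, with sums between 618 and 736 CPM (counts scaled to the size of the library). Replicate 1 of both genotypes stood apart, with neutrophil marker sums of 12600 and 11500 CPM against 4920 to 7810 CPM elsewhere. Of these 2 sums the single marker Mpo made 7870 and 8050 CPM. It also had fewer reads in no gene, 38.3% and 37.6% against 48.9% to 52.1% elsewhere. WT fed replicate 3 had 14.2% of its counts in the ribosomal-repeat gene Gm26917, against 6.33% to 8.34% elsewhere. Each library without the agent held both Xist and the Y-linked Ddx3y, hence RNA of both sexes, whereas each fed library held RNA of 1 sex. Fed replicate 2 of both genotypes held Xist and no Ddx3y. Fed replicates 1 and 3 held Ddx3y and at most 2 counts of Xist.

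Levels are given first within each class as CPM per kilobase of exon sequence and as the mean of the 3 WT fed libraries. The length joins the exons of all annotated transcripts of a gene, whether or not these cells use them. For Jmjd4 it is 7115 bases between positions 59450045 and 59458567. The transcripts in use were not measured, so the order of genes per kilobase is approximate. Kdm6b stood highest of all 34 at 162 ± 33.9 (SD, n = 3), and its lowest WT fed library, at 140, was above the highest value of every other dioxygenase. This demethylase removes the histone mark laid down by Polycomb. It lies on chromosome 11, from 69398508 to 69413675 on the minus strand (ENSMUSG00000018476.7, GRCm38), and 286 bases of its exons overlap the antisense gene Kdm6bos. Its scaled count was 991 CPM without the agent and 1000, 973 and 1400 CPM in WT fed replicates 1 to 3. In Alkbh5-deficient cells it was 908 CPM without the agent and 1020, 971 and 909 CPM in the fed replicates. WT fed replicate 3 was the highest of the 8 libraries, and the other 7 lay within 908 to 1020 CPM.

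The other 12 JmjC demethylases and relatives ranged from 2.98 ± 0.467 CPM per kilobase for Kdm5b to 28.2 ± 3.73 for Phf2. Kdm5b acts on methylated lysine 4 of histone H3 and Phf2 on lysine 9. Between them lay Kdm4a at 20.2 ± 1.61, Kdm3b at 16.4 ± 0.583 and Kdm2b at 15.4 ± 3.73, which are neighbours in the order whose ranges overlapped for Kdm3b and Kdm2b. Kdm4a did not overlap Kdm3b, with a lowest library of 18.9 against a highest of 17.1.

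Among the TET enzymes, Tet3 and Tet2 were abundant and Tet1 was near the bottom of the whole set. In WT fed libraries Tet3 was at 27.9 ± 6.13 and Tet2 at 20.7 ± 4.08 CPM per kilobase, and the lowest Tet3 library, 24.1, was above the highest Tet2 library, 23.1. Without the agent the order was the reverse in both genotypes, with Tet2 at 39.0 and 38.2 and Tet3 at 28.6 and 26.6 CPM per kilobase. Tet1 was at 0.406 ± 0.0859. As scaled counts Tet3 was 478 CPM in the WT library without the agent and 402, 413 and 584 CPM in the WT fed ones. In Alkbh5-deficient cells Tet3 was 444 CPM without the agent and 435, 477 and 452 CPM after feeding, inside the WT range. Tet1 stayed between 4.86 and 8.35 CPM in all 8 libraries, from 25 to 61 counts, with WT libraries at 7.65 without the agent and 7.49, 6.46 and 4.86 fed, and Alkbh5-deficient ones at 6.10 and at 6.28, 8.35 and 6.01.

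All 4 HIF hydroxylases were expressed. Egln2 led at 23.5 ± 8.17 CPM per kilobase, followed by Egln1 at 16.7 ± 3.29, Egln3 at 9.17 ± 2.09 and Hif1an at 7.36 ± 1.06. The ranges of Egln2 and Egln1 overlapped, as did those of Egln3 and Hif1an, whereas Egln1 did not overlap Egln3. Hif1an was 61.0 CPM in the WT library without the agent and 42.6, 46.9 and 56.3 CPM in the WT fed ones. Its Alkbh5-deficient libraries were at 50.1 CPM without the agent and 48.8, 40.8 and 46.2 CPM fed, so the fed groups overlapped.

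Of the small JmjC proteins, Jmjd6, a lysyl hydroxylase of splicing factors, was highest at 12.1 ± 0.62 CPM per kilobase and Tyw5, a hydroxylase of wybutosine in transfer RNA, lowest at 1.64 ± 0.403. Jmjd6 varied little, from 51.8 to 59.9 CPM over the 8 libraries, with 59.9 CPM without the agent and 53.4, 58.0 and 58.9 CPM fed in WT, and 56.6 and then 54.6, 52.3 and 51.8 CPM in Alkbh5-deficient cells. Tyw5 was 7.52 CPM without the agent and 5.33, 5.19 and 3.30 CPM fed in WT, and 6.10 and then 5.99, 4.24 and 5.76 CPM in Alkbh5-deficient cells. Both libraries without the agent were above all 6 fed ones for Tyw5. Jmjd8, whose protein lies in the endoplasmic reticulum, and Jmjd4, which hydroxylates a translation termination factor, were at 6.85 ± 1.08 and 1.90 ± 0.345 CPM per kilobase.

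The collagen and endoplasmic reticulum hydroxylases spanned the widest fold range of any class, from Plod3 at 29.8 ± 6.77 CPM per kilobase, the second highest of the 34, to P4ha2 at 0.184 ± 0.0871, the lowest. PLOD3 is a lysyl hydroxylase that also adds sugars to hydroxylysine, and P4HA2 is a catalytic subunit of collagen prolyl 4-hydroxylase. The other catalytic subunit, P4ha1, was at 6.41 ± 1.39. P4ha2 had 1 to 9 counts per library and P4htm, a membrane-bound prolyl hydroxylase, 2 to 14. P4ha2 was 0.259 CPM without the agent and 0.999, 0.692 and 1.75 CPM fed in WT, and 0.436 and then 0.150, 0.821 and 0.626 CPM in Alkbh5-deficient cells. Differences of these 2 genes are not resolved at such counts.

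Among the remaining genes, Phyh, the peroxisomal enzyme that degrades phytanic acid, was at 7.38 ± 2.70 CPM per kilobase and Ogfod1, a prolyl hydroxylase of a ribosomal protein, at 4.18 ± 0.095. Phyh was 10.4 CPM without the agent and 19.3, 13.5 and 9.13 CPM fed in WT, and 9.26 and then 19.3, 13.6 and 11 CPM in Alkbh5-deficient cells. Replicate 1 was the highest in both genotypes. Ogfod1 had the smallest coefficient of variation of the set in WT fed libraries, 2.27%, and lay between 23.5 and 26.6 CPM, with 26.6 CPM without the agent and 24.3, 24.0 and 25.1 CPM fed in WT, and 25.4 and then 24.4, 26.3 and 23.5 CPM in Alkbh5-deficient cells.

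**Figure D1:**
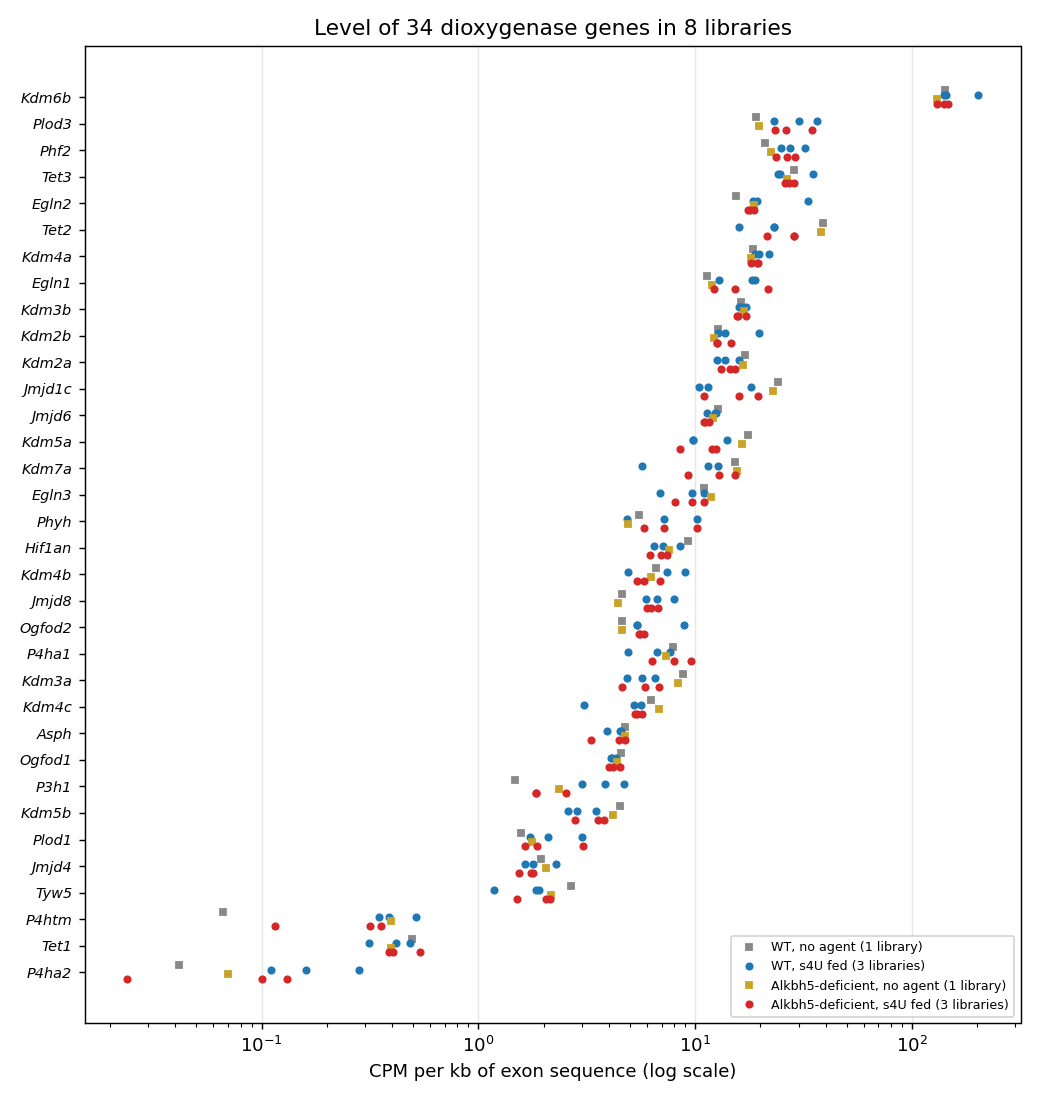
Level of each of the 34 dioxygenase genes in CPM per kilobase of exon sequence on a log axis. Genes are in order of the WT fed mean, with 1 point per library. Kdm6b lies highest, with a WT fed mean of 162, and P4ha2 lowest, at 0.184.

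The spread between replicates was larger by estimate in WT fed than in Alkbh5-deficient fed libraries. Over the 33 genes tested between genotypes, the median coefficient of variation was 21.2% in WT fed and 15.1% in Alkbh5-deficient fed libraries, against 22.9% and 17.6% over all genes tested. The WT value was the larger for 26 of 33, against 64.4% of all genes. WT fed replicate 3 was the highest WT fed library for 16 of 33 (48.5%), against 37.1% of all genes. Some genes moved with replicate 1 in both genotypes. Plod1, a lysyl hydroxylase, was 20.3 and 20.5 CPM there against 11.1 to 14.2 CPM in the other fed libraries, and Plod3 was 165 and 156 CPM there against 104 to 136 CPM. The summed neutrophil markers were also highest in these 2 libraries, and the share of reads in no gene was lowest. The part of either in these values was not tested.

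Between genotypes, no dioxygenase gene passed the test in the 6 fed libraries. The edgeR quasi-likelihood test on counts covered 33 of the 34 genes, since P4ha2 did not pass the low-count filter, and 0 of 33 passed at an adjusted p under 0.05, against 0.00750% of the 13342 genes tested, which is Alkbh5 alone. DESeq2 also called 0 of these genes, against 0.00803% of all genes, all lower. By estimate 13 were higher and 20 lower in Alkbh5-deficient cells, with a median log2 fold change of -0.04 against 0.00 for all genes, of which 49.8% were lower. At an unadjusted p under 0.05 stood 1 of 33 (3.03%), P3h1, against 1.13% of all genes. Nothing in the labels says that replicates are separate animals, and the p-values speak only of the scatter among these libraries.

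By class, the estimates were higher for 2 of 3 TET genes, 1 of 4 HIF hydroxylases, 6 of 13 JmjC demethylases, 1 of 4 small JmjC genes, 1 of 6 collagen and endoplasmic reticulum hydroxylases and 2 of the 3 others. Excluding P3h1 and P4htm, which was at -0.64 ± 0.53 (SE), every estimate lay between -0.39 and 0.33 on the log2 scale. Kdm6b was at -0.22 ± 0.18, Tet3 at -0.04 ± 0.18 and Kdm3b at -0.03 ± 0.14.

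**Figure D2:**
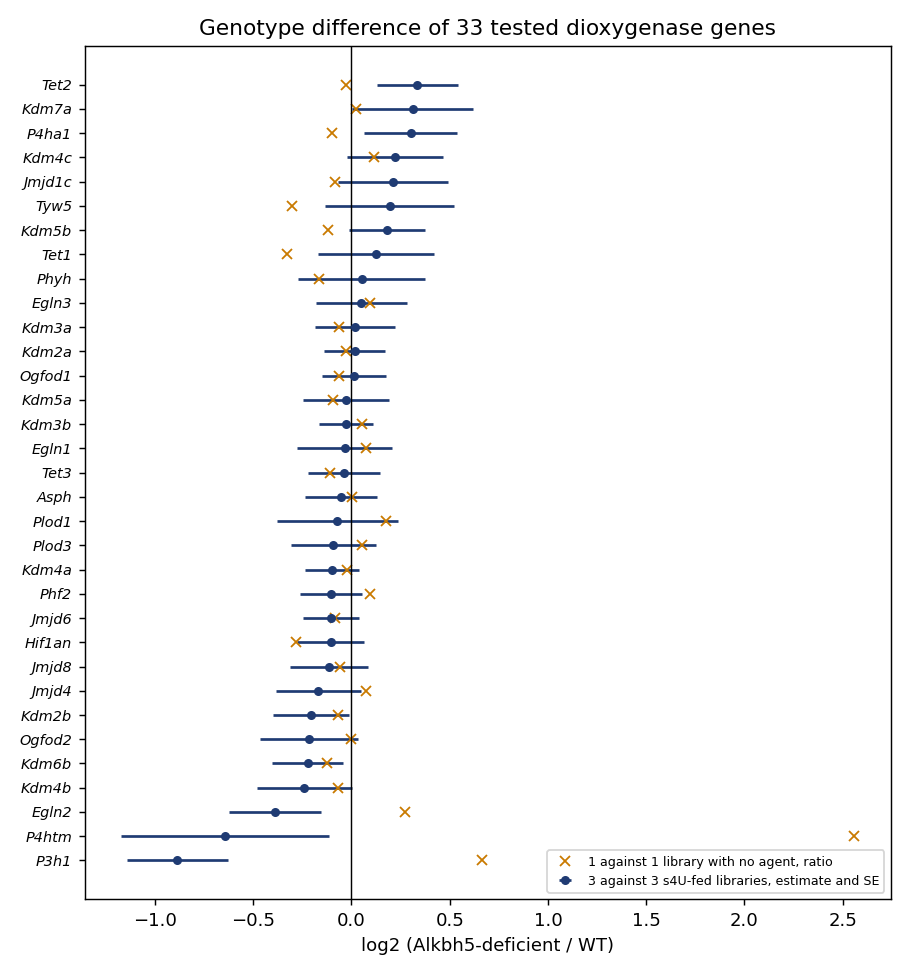
Genotype difference of the 33 tested dioxygenase genes as log2 fold change of Alkbh5-deficient over WT fed libraries, with points for estimates and bars for standard errors from edgeR. P3h1 is the lowest at -0.89 and Tet2 the highest at 0.33, and none passed the adjusted threshold.

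P3h1 encodes a collagen prolyl 3-hydroxylase that works in a complex with cartilage-associated protein (Crtap) and cyclophilin B (Ppib). The gene lies on chromosome 4, from 119232915 to 119248975 on the plus strand (ENSMUSG00000028641.16, GRCm38). Its scaled count was 14.7, 11.6 and 18.1 CPM in WT fed replicates 1 to 3, from 88, 101 and 93 counts, and 9.73, 7.12 and 7.13 CPM in the Alkbh5-deficient ones, from 65, 52 and 57 counts. Every WT fed library was above every Alkbh5-deficient fed library. P3h1 was the only one of the 33 whose fed groups did not overlap (3.03%, against 5.67% of all genes in either direction and 3.34% lower). The means were 14.8 ± 3.21 and 7.99 ± 1.5 CPM (SD, n = 3 each), a log2 fold change of -0.89 ± 0.26 (SE) with an adjusted p of 1 by edgeR. Over 18 other analyses of the genotype difference the fold change stayed between -1.05 and -0.51 and the adjusted p between 0.394 and 1 with edgeR, DESeq2 or limma.

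The libraries without the agent went the other way for P3h1. They held 44 counts (5.70 CPM) in WT and 83 counts (9.05 CPM) in Alkbh5-deficient cells, or 159% of WT (95% counting interval 109% to 234%). The fed pairs of the same replicate number were at 66.4%, 61.1% and 39.5% of WT. A fit over all 8 libraries gave P3h1 a smaller difference, -0.51 ± 0.30. Of its partners, Crtap was 19.0, 11.8 and 15.3 CPM in WT fed and 17.7, 14.4 and 10.6 CPM in Alkbh5-deficient fed replicates, and the groups overlapped. Ppib overlapped too, at 286, 186 and 191 CPM against 264, 188 and 176 CPM. The paralogue P3h3 was at 11, 23 and 19 counts in WT fed and 4, 12 and 9 in Alkbh5-deficient fed replicates, with a log2 fold change of -1.25 ± 0.50 and an adjusted p of 1 by edgeR.

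Markers of stroma, whose cells make collagen, differed widely between libraries. Col1a1, which encodes a chain of type I collagen, was 2.5, 190 and 1170 CPM in WT fed and 1.95, 365 and 384 CPM in Alkbh5-deficient fed replicates. The summed level of 9 stroma and endothelium markers was 115, 384 and 1980 CPM in WT fed and 117, 665 and 704 CPM in Alkbh5-deficient fed replicates. By estimate 7 of 7 tested markers were lower in the latter, but by sum only WT fed replicate 3 was above them. In replicate 1 of both genotypes, where Col1a1 was 2.5 and 1.95 CPM, P3h1 was 14.7 and 9.73 CPM, and the part of stroma in the P3h1 values was not tested. Markers of mast cells, basophils and eosinophils summed to 1720, 763 and 1190 CPM in WT fed and 835, 742 and 757 CPM in Alkbh5-deficient fed replicates. All 7 of 7 were lower by estimate in the latter, but the sum of WT fed replicate 2 lay among those of the Alkbh5-deficient libraries. T and NK cell markers were lower by estimate for 7 of 7 tested, with Cd3g at only -0.02. Their sums were 58.9 to 69.1 CPM in WT fed and 48.5 to 59.7 CPM in Alkbh5-deficient fed libraries. Nkg7 alone made 26.2 to 38.9 CPM and 26.3 to 31.0 CPM of these. Monocyte and macrophage markers were higher for 8 of 8, with sums of 918 to 1930 CPM in WT fed and 1120 to 2260 CPM in Alkbh5-deficient fed libraries. The part of these cells in the P3h1 values was not tested either. In bulk RNA, fewer cells of a type and less RNA per cell cannot be told apart.

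**Figure D3:**
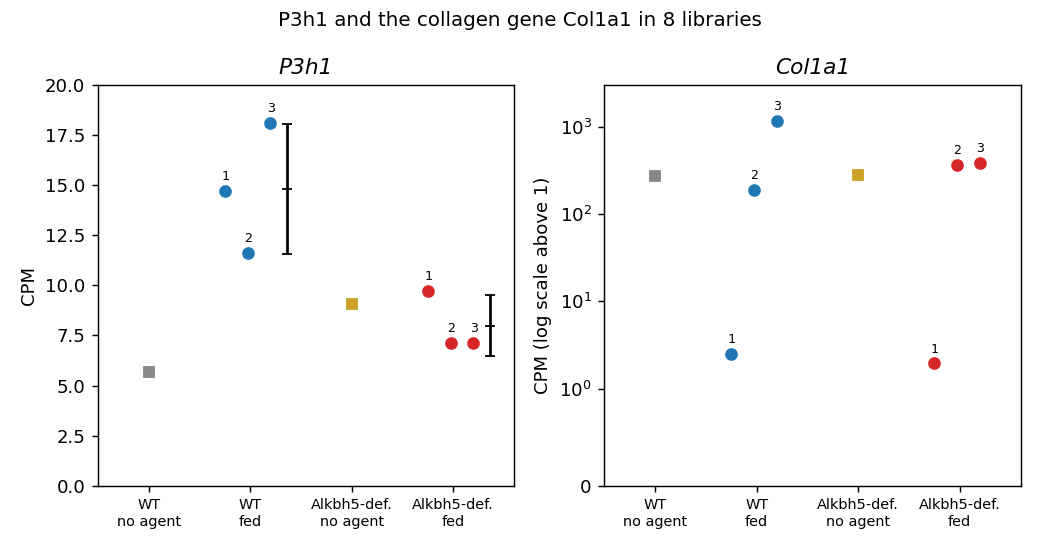
P3h1 (left, linear axis) and Col1a1 (right, log axis above 1) in CPM in each of the 8 libraries, with replicate numbers above the points and the mean and SD of 3 fed libraries for P3h1. The WT fed libraries lie between 11.6 and 18.1 CPM for P3h1 and the Alkbh5-deficient fed ones between 7.12 and 9.73 CPM.

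The next smallest p-values belonged to Egln2 and Tet2. Egln2, an EGLN enzyme of the nucleus, was 51.6, 53.8 and 92.3 CPM in WT fed and 50.0, 48.9 and 52.2 CPM in Alkbh5-deficient fed replicates, and 43.2 and 52.1 CPM without the agent. Only WT fed replicate 3 stood clear of the others. The log2 fold change was -0.39 ± 0.23 (edgeR, adjusted p = 1), and -0.07 without that library.

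Tet2 lies on chromosome 3, from 133463679 to 133545139 on the minus strand (ENSMUSG00000040943.12). It was 390, 390 and 270 CPM in WT fed and 484, 361 and 485 CPM in Alkbh5-deficient fed replicates. The groups overlapped, with Alkbh5-deficient replicate 2 below 2 of the WT libraries. The log2 fold change was 0.33 ± 0.21 (edgeR, adjusted p = 1), and 0.19 without WT fed replicate 3. Without the agent Tet2 was at 658 CPM (WT) and 645 CPM (Alkbh5-deficient), or 98.1% of WT (94.4% to 102%).

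Between the 2 libraries without the agent there was 1 per genotype and hence no test, and the intervals given cover counting error only. Of the 34 genes, 14 were higher and 20 lower in Alkbh5-deficient cells (47.0% of all genes with at least 20 counts were lower). Over the 32 dioxygenase genes with at least 20 counts the median log2 ratio was -0.04, against 0.01 for all such genes. The interval lay above 100% for P3h1, for Egln2 at 121% (105% to 139%) and for P4htm at 589% (135% to 5340%), the last from 2 and 14 counts. It lay below 100% for Tet3 at 92.8%, Hif1an at 82.1%, Kdm5a at 93.7%, Kdm6b at 91.6% and Jmjd1c at 94.3%. Among the 32, these are 2 above and 5 below, against 9.37% and 7.32% of the 13762 genes with at least 20 counts. P3h1, Egln2 and P4htm were higher without the agent and lower by estimate after feeding. The genotype by s4U interaction, tested with edgeR in all 8 libraries, called 0 of the 34 genes and 0 of 14988 in all (0%). At an unadjusted p under 0.05 stood 2 of 34, P3h1 and P4htm, against 0.160% of all genes.

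Feeding with s4U was compared with no agent in all 8 libraries, adjusted for genotype. Again no dioxygenase gene passed the edgeR test (0 of 34, against 0.0267% of 14988 genes), with estimates higher for 15 and lower for 19 and a median log2 fold change of -0.04 against 0.03 for all genes, of which 47.9% were lower. At an unadjusted p under 0.05 stood 7 of 34 (20.6%), close to the 19.6% of all genes. They were Tet2, Kdm3a, Kdm5a, Kdm5b and Jmjd1c, lower in fed libraries (5 of 34, against 10.0% of all genes), and Jmjd8 and Plod3, higher (2 of 34, against 9.53%). Because each library without the agent held RNA of both sexes and each fed library RNA of 1 sex, feeding and the source of the cells cannot be told apart.

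Tet2 had the smallest p of the set. It was 658 and 645 CPM without the agent and 390, 390, 270, 484, 361 and 485 CPM in the fed libraries, WT first. All 6 fed libraries were below both others, and the mean was 397 ± 81.0 CPM (SD, n = 6). The log2 fold change was -0.73 ± 0.19 with an adjusted p of 0.165 by edgeR, while DESeq2 gave -0.73 with an adjusted p of 0.032, the 1 dioxygenase gene among its 536 calls, which were 2.94% of genes higher and 2.49% lower. In 19 other analyses the estimate stayed between -0.91 and -0.26, with adjusted p between 0.032 and 0.966 by edgeR or DESeq2.

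Kdm3a, which demethylates lysine 9 of histone H3 and is itself a HIF target, was 71.9 and 68.8 CPM without the agent. In fed libraries it was 39.8, 53.4 and 46.8 CPM for WT and 37.9, 48.3 and 55.9 CPM for the Alkbh5-deficient genotype. The fed libraries did not reach the others, at a log2 fold change of -0.58 ± 0.17 (edgeR, adjusted p = 0.17).

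Kdm5a, a demethylase of lysine 4 of histone H3, was 250 and 234 CPM without the agent. It was 138, 198 and 139 CPM in WT fed and 121, 169 and 177 CPM in Alkbh5-deficient fed libraries, again without overlap, at -0.62 ± 0.19 (edgeR, adjusted p = 0.17). Its paralogue Kdm5b was 75.0 and 69.2 CPM without the agent. In fed libraries Kdm5b was 42.8, 57.9 and 47.4 CPM for WT and 46.4, 63.0 and 59.2 CPM for the Alkbh5-deficient genotype. The log2 fold change was -0.45 ± 0.17 (edgeR, adjusted p = 0.207). Jmjd1c, a relative of Kdm3a, was 430 and 406 CPM without the agent and 185 to 348 CPM fed, at -0.71 ± 0.25 (edgeR, adjusted p = 0.182). Its lowest library was replicate 1 in each genotype, at 185 and 196 CPM.

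In the other direction, Plod3 was 86.1 and 89.3 CPM without the agent. It was 165, 104 and 136 CPM in WT fed and 156, 106 and 118 CPM in Alkbh5-deficient fed libraries, all above the others, at 0.57 ± 0.21 (edgeR, adjusted p = 0.197). Jmjd8 was 12.7 and 12.2 CPM without the agent and 16.3 to 22.1 CPM fed, at 0.54 ± 0.19 (edgeR, adjusted p = 0.183). Exons of Plod3 and Jmjd8 overlap those of Znhit1 and Stub1 on the opposite strand over 529 and 1148 bases. The sources used here do not give the strand setting of the counting. No read was recorded as shared with Znhit1 or Stub1, as when counting keeps the strands apart.

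Counted by libraries, 15 of 34 genes (44.1%) did not overlap between fed and unfed groups, against 30.9% of all genes tested. Lower in all fed libraries were 10 (29.4%, against 16.2%), namely Tet2, Egln3, Kdm2a, Kdm3a, Kdm4c, Kdm5a, Kdm5b, Kdm7a, Jmjd1c and Tyw5. Higher in all were 5 (14.7%, against 14.7%), namely Egln1, Phf2, Jmjd8, Plod3 and Ogfod2. The lower genes had a median exon length of 12.1 kb and the higher ones of 3.59 kb. Egln1, the main oxygen sensor of the EGLN family, was 40.7 and 42.8 CPM without the agent and 43.9 to 77.5 CPM fed, whereas Egln3 was 29.3 and 31.3 CPM without the agent and 18.3 to 29.2 CPM fed.

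Length moved with the s4U difference over all genes. In 5 groups of the tested genes of equal size by exon length, from short to long, the median log2 fold change was 0.30, 0.14, 0.04, -0.05 and -0.20. The dioxygenase genes were longer than most, at a median of 6.04 kb against 3.87 kb, with 13 of 34 in the longest group and 0 in the shortest. Their own medians in the other 4 groups, again from short to long, were 0.33, 0.50, 0.06 and -0.25. With the trend on length removed in each library, their median was 0.18 against 0.04 for all genes. Tet2 then stood at -0.37, Kdm5a at -0.32, Jmjd1c at -0.36 and Kdm5b at -0.11, while Plod3 stood at 0.60. The genes without overlap were then 16 (47.1%), against 27.8% of all genes. Higher were 10, against 14.9% of all genes, namely Tet3, Egln1, Kdm2b, Kdm3b, Kdm4a, Phf2, Jmjd8, Plod1, Plod3 and Ogfod2. Lower were 6, against 12.8%, namely Egln3, Kdm3a, Kdm4c, Kdm5a, Jmjd1c and Tyw5.

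**Figure D4:**
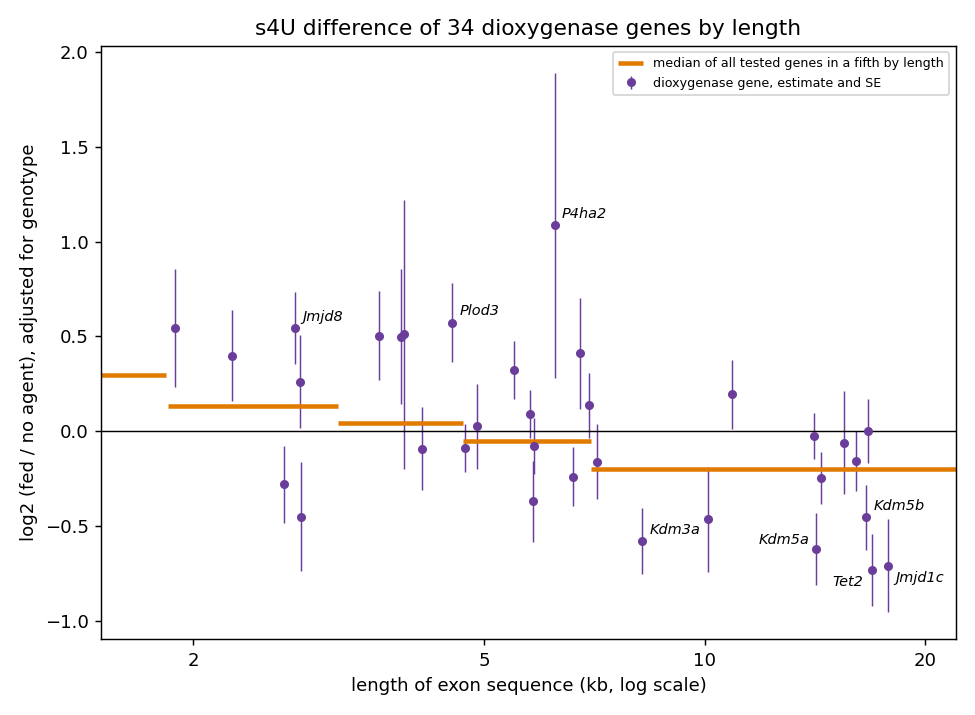
s4U difference of the 34 dioxygenase genes (log2 fold change, fed over no agent, with SE) against exon length in kilobases on a log axis, with orange lines for the median of all tested genes in each of 5 groups by length. Long genes such as Tet2 and Jmjd1c lie at the lower right, below the line at -0.20, and Plod3 and Jmjd8 above 0.5.

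Cell type markers differed between fed and unfed libraries as well. All 9 neutrophil markers were higher by estimate in fed libraries, with sums of 6570 to 12600 CPM against 4920 and 5690 CPM. Mpo alone made 3940 to 8050 CPM of the fed sums and 3020 and 3680 CPM of the others. Mpo, Elane, Prtn3, Camp and Cebpe did not overlap between the groups, whereas S100a8, S100a9, Ltf and Ngp did. In WT fed replicate 3 S100a8 was 46.8 CPM, against 128 and 119 CPM without the agent. All 7 markers of mast cells, basophils and eosinophils were higher by estimate too, with sums of 742 to 1720 CPM against 606 and 508 CPM. The part of these cells in the values of the dioxygenase genes was not tested.

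Of the genes that work with these enzymes, edgeR with the low-count filter called 0 in either contrast. Of 14 tested dioxygenases outside the set, 8 were higher and 6 lower by estimate between genotypes, led by P3h3 and by Jarid2, a JmjC partner of Polycomb, at 0.23 ± 0.16. Of 10 tested HIF pathway partners, 7 were higher and 3 lower, and the smallest p-values were those of the ubiquitin ligase subunits Cul2, at 0.40 ± 0.27, and Eloc, at 0.35 ± 0.32. Of 18 HIF target genes, 8 were higher and 10 lower, with the glycolytic Ldha at -0.28 ± 0.16 and the stress gene Ddit4 at -0.51 ± 0.38. TET partners and DNA methylation genes were 3 higher and 8 lower of 11, with Ogt, a glycosyltransferase that binds TET enzymes, at 0.29 ± 0.19 and the methyltransferase Dnmt3b at -0.25 ± 0.19.

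Polycomb genes were 6 higher and 7 lower of 13 between genotypes, with Ring1 at -0.43 ± 0.24 and Pcgf1 at -0.41 ± 0.42. Collagen partners and substrates were 1 higher and 9 lower of 10. The basement membrane collagens Col4a1 and Col4a2 were at -0.72 ± 0.47 and -0.63 ± 0.53. Without WT fed replicate 3 they were at 0.01 and 0.23. Col1a1, Col1a2 and Col3a1 are in this list and among the stroma markers above, so the directions of the lists are not independent. The part of stroma in these values was not tested. Genes of 2-oxoglutarate supply and removal were 6 higher and 12 lower of 18. Ogdh, the 2-oxoglutarate dehydrogenase subunit that removes the cosubstrate of all these enzymes, was 239, 210 and 252 CPM in WT fed and 93.1, 115 and 97.4 CPM in Alkbh5-deficient fed libraries, at -1.20 ± 0.16. Its adjusted p was 0.349 by edgeR with the low-count filter, 7.57e-06 by DESeq2, 0.00894 by edgeR without the filter and 0.00233 by limma voom. The glutamine carrier Slc1a5 was at -0.17 ± 0.17.

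In the s4U comparison the same lists gave 6 higher and 9 lower of 15 other dioxygenases, 4 and 6 of 10 HIF partners, 11 and 9 of 20 HIF targets, 7 and 5 of 12 TET partners, 3 and 10 of 13 Polycomb genes, 9 and 1 of 10 collagen partners and 11 and 7 of 18 supply genes. Plod2, a lysyl hydroxylase outside the set, was at -0.91 ± 0.31 and the demethylase Kdm6a at -0.75 ± 0.37. Kdm6a was 96.7 and 95.1 CPM without the agent. Fed libraries held 87.2 and 84.5 CPM of it in replicate 2, which had Xist and no Ddx3y, and 31.1 to 55.2 CPM in replicates 1 and 3. The part of sex in its values was not tested. Hif1a, the oxygen-regulated HIF subunit, was at -0.58 ± 0.18 and the ligase Siah1a, which degrades EGLN proteins, at -0.80 ± 0.25. Ldha and Pgk1, both glycolytic HIF targets, were at 0.43 ± 0.16 and 0.46 ± 0.22.

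Among the TET partners, Ogt was at -0.77 ± 0.17 and the isocitrate dehydrogenase Idh2 at 0.67 ± 0.23 in fed libraries. The Polycomb subunit Suz12 was at -0.58 ± 0.19 and Usp7 at -0.51 ± 0.19. The collagen partners Ppib and P4hb, the latter the beta subunit of prolyl 4-hydroxylase, were at 0.58 ± 0.22 and 0.64 ± 0.27. Of the supply genes, the mitochondrial aminotransferase Got2 was at 0.60 ± 0.17. By edgeR, the smallest adjusted p of these lists was 0.165. DESeq2 gave adjusted p-values of 0.0199 for Ogt and 0.0336 for Got2.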

How the data were processed

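The deposited values are raw read counts, 1 file for each of 8 libraries. Tools that the submitters' processing notes name are HISAT2, STAR, HTSeq, Picard, cutadapt and DESeq2, and the builds are GRCm38 and mm10. Versions, roles and the strand setting were not given in the sources used here. Of 34 members, 14 share exon sequence with a gene on the opposite strand and 3 with one on the same strand. Reads in no gene, 37.6% to 52.1% of a library, stayed out. Reads recorded as shared with another gene were at most 2 per member. The only such entries paired Kdm2b with Gm44574 and Jmjd6 with Gm27401, each on the same strand. None paired a member with a gene on the opposite strand, as when counting keeps the strands apart.

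The tests used edgeR 4.0.16 (R 4.3.3) with robust quasi-likelihood fits, TMM normalization, its default filter on low counts, and Benjamini-Hochberg adjustment over all genes tested at a threshold of 0.05. The genotype contrast used the 6 fed libraries, and the s4U contrast and the interaction used all 8. The standard error was the log2 fold change divided by the root of F. CPM were TMM-scaled over 8 libraries. Exon length was that of the joined exons of all transcripts of a gene in GENCODE M21, which held 27069 of the 27710 symbols. Counts in the libraries without the agent were compared with a 95% conditional binomial interval. Alternatives were RLE size factors, DESeq2 1.42.0, other filters, removal of ribosomal-repeat genes, lowess trends on length and GC (span 0.3), a threshold of 0.1, the replicate block, voom in limma 3.58.1, each library left out, an additive fit over 8 libraries and, for the s4U contrast, each genotype alone. Removal of both trends, removal of replicate 1 of both genotypes and the overlap counts after removal of the length trend were chosen after seeing the data. The test code was run on simulated counts with known changes. In the genotype design it called 2 of 50 genes changed 1.5-fold, 12 of 50 changed 2-fold, 34 of 50 changed 4-fold and 46 of 50 changed 8-fold. In the s4U design these were 3, 13, 36 and 40 of 50. Unchanged genes called were 14 and 6, in each design a larger share of the calls than the threshold of 0.05. The real genotype contrast called 1 gene. With fewer changed genes than were simulated the adjustment is stricter, so the shares found may be higher than in these data. Most changes of 2-fold or less were missed, so a count of 0 calls does not show that no gene changed.

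Values in every library are given for the 3 members with the smallest p in the genotype and s4U contrasts, for the highest and lowest member of each class per length, and for members whose fed groups do not overlap between genotypes. Of the partner lists, the 2 genes with the smallest p are named, except 1 gene that is not reported here. Plod1, Kdm5b, Jmjd1c, Jmjd8, Plod3 in the s4U contrast and the EGLN genes there, and Crtap, Ppib and Col1a1 beside P3h1, were named after their values were seen. The members and lists were chosen with earlier results of these data known. Bbox1 and Tmlhe were not analysed here.

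The labels give the replicate numbers. Departures of same-numbered WT and Alkbh5-deficient libraries from their group means correlated across genes at r = 0.678, 0.291 and 0.193 for numbers 1, 2 and 3. For numbers 2 and 3 the crossed pairs correlated more, as WT 2 with Alkbh5-deficient 3 gave 0.351 and WT 3 with Alkbh5-deficient 2 gave 0.348. Over the dioxygenase genes alone the same-numbered values were 0.502, -0.021 and -0.168, and these crossed pairs gave 0.537 and 0.416. Pairing by number is thus borne out for number 1 only. The main genotype test used no pairing, and the replicate block was an alternative. No 2 libraries agreed within sampling noise, with a chi-square of at least 2.93 per gene.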

Additional observations from a re-analysis of the deposited data

Results flagged for a closer look

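A pair of results was picked out because the genotype difference with s4U differed from that without it by an unadjusted test of the interaction. P3h1 had an interaction of -1.55 ± 0.55 (SE) on the log2 scale, which is its genotype difference in fed libraries less that without the agent, with an adjusted p of 1 by edgeR. Its fed libraries of the same replicate number were at 66.4%, 61.1% and 39.5% of WT and the pair without the agent at 159%.

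P4htm had an interaction of -3.13 ± 1.27 (SE) on the log2 scale, with an adjusted p of 1 by edgeR. Its WT library without the agent held 2 counts and the Alkbh5-deficient one 14, against 12, 13 and 7 counts in WT fed and 3, 9 and 11 in Alkbh5-deficient fed replicates. Each interaction rests on 1 library without the agent per genotype, and at an unadjusted p under 0.05 stood 24 of 14988 genes.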

How the results depend on the processing

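No dioxygenase gene was called between genotypes or in the interaction in any alternative run, and only DESeq2 called 1 in the s4U contrast (Tet2). Over all genes, 1 call between genotypes became 2 with DESeq2, 2 without the low-count filter and 9 with voom and the replicate block. With the replicate block in edgeR 1 gene and no dioxygenase was called, and P3h1 stood at -0.88 with an adjusted p of 0.939, so the block changed no call of a dioxygenase gene. The unlabelled libraries carry no number, so the other contrasts had no block. The 4 genes called in the s4U contrast became 536 with DESeq2, 37 without the filter, 1 with the length trend removed, 0 with both trends removed, 0 in WT alone, 0 in Alkbh5-deficient cells alone and 0 to 2 with a library left out. The cause was not tested. A fit with 1 library in an arm, as in each genotype alone or with an unfed library left out, assumes that this library varies like the rest, and its count of 0 says nothing on stability.

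The median log2 fold change of the dioxygenase genes between genotypes was -0.0946 with the length trend removed and -0.0968 to 0.00627 with a library left out. In the s4U contrast it was 0.18 with the length trend removed, -0.103 with the GC trend removed and 0.0351 with both removed. In the interaction it was 0.028 with the GC trend removed and -0.0431 to 0.0256 with a library left out. With a library left out, Col4a1 lay between -1.03 and 0.0115 and Col4a2 between -0.934 and 0.233 between genotypes, both above 0 without WT fed replicate 3, and Col4a2 was 0.0852 with voom and the replicate block. Depth limits P4ha2 and P4htm, with 1 to 14 counts per library.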
